A study of Mus musculus with 15 samples.

Results

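The smooth muscle contractile genes are 10 of the 55471 genes of the count table: *Acta2*, *Myh11*, *Myl9*, *Mylk*, *Tpm1*, *Tpm2*, *Cnn1*, *Tagln*, *Lmod1* and *Des*. They were chosen by name, for products that build or drive the contractile apparatus of smooth muscle, and each matched a single Ensembl gene. Their RNA was measured by bulk RNA sequencing of whole hippocampi of female mice aged 3 months, in 15 libraries, 3 for each of 5 groups, collected and sequenced in 2 batches. DM mice were AppNL-G-F/NL-G-F at *App* and Apoe4+/wt at *Apoe*, that is, homozygous for mutations knocked in at the mouse *App* locus and heterozygous for the human *APOE4* allele. APP-TKI mice (AppNL-G-F/NL-G-F) carried the *App* mutations alone, ApoE4 mice (ApoE4+/wt) carried 1 *APOE4* allele alone, and WT mice (wild-type) carried neither. Both alleles are knock-ins and are present in all cell types of the animal. Batch 1 held 3 DM, 3 APP-TKI and 3 WT libraries, and batch 2 held 3 ApoE4 and 3 WT libraries, so that DM and ApoE4 mice were never in the same batch. The labels number the libraries of a group, and the study counts its replicates as mice, so p-values measure the spread between these libraries. Values are read counts, or CPM, the count as a share of all reads counted in a library, scaled to 1000000 reads.

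Smooth muscle cells wrap arteries, arterioles and veins, and in the brain they set vessel diameter and so blood flow. Contraction begins when calcium, bound to calmodulin, activates myosin light chain kinase, which phosphorylates the myosin regulatory light chain and lets myosin pull on filaments of α-smooth muscle actin. Tropomyosins, calponin, transgelin and leiomodin bind the actin filaments, and desmin is an intermediate filament protein of muscle. Many genes of this program are activated in other tissues by serum response factor (SRF) with its cofactor myocardin, through a DNA element called the CArG box.

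The genes are scattered over the genome (GRCm38, GENCODE annotation). *Acta2* (ENSMUSG00000035783, α-smooth muscle actin) spans bases 34241090 to 34255590 of chromosome 19, on the minus strand. *Myh11* (ENSMUSG00000018830, smooth muscle myosin heavy chain) lies at 14194535 to 14291372 on the minus strand of chromosome 16, which also holds *Mylk* (ENSMUSG00000022836, myosin light chain kinase, plus strand) at 34745210 to 35002420. *Tagln* (ENSMUSG00000032085, transgelin) and *Tpm1* (ENSMUSG00000032366, tropomyosin α) lie on the minus strand of chromosome 9, at 45929619 to 45936058 and 67022590 to 67049406, and *Cnn1* (ENSMUSG00000001349, calponin) on its plus strand at 22099216 to 22109630. *Tpm2* (ENSMUSG00000028464, tropomyosin β) lies at 43514711 to 43523765 on the minus strand of chromosome 4, and *Myl9* (ENSMUSG00000067818, a regulatory light chain of myosin) at 156775420 to 156781658 on the plus strand of chromosome 2. *Des* (ENSMUSG00000026208, desmin) and *Lmod1* (ENSMUSG00000048096, leiomodin) lie on the plus strand of chromosome 1, at 75360329 to 75368579 and 135324807 to 135368065. *Tagln* overlaps *Pcsk7* and *Gm48529*, *Mylk* overlaps *E130310I04Rik* and *Gm21691*, and *Des* overlaps *Gm15179*, each on the opposite strand. The libraries were directional, but the sources used here do not say whether the counting used strand, so counts of these 3 genes could include reads of their neighbours. *Acta2* has close paralogs among the muscle actins, and how reads that match several of them were counted is likewise unstated there.

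The RefSeq promoters of *Acta2* and *Myl9* are shown because, of the 8 members in the RefSeq table (GRCm38.p6; *Tagln* and *Myh11* are not among them), these held the CArG elements that a search of the 250 bases before the start found. The search took the CArG box, and the CArG box with 1 G or C in its middle, on both strands, which read alike for these palindromic forms; the forms exclude each other. Matches are in capitals and each sequence runs 5′ to 3′ toward the start.
*Acta2*, chr19:34255374-34255623, minus strand: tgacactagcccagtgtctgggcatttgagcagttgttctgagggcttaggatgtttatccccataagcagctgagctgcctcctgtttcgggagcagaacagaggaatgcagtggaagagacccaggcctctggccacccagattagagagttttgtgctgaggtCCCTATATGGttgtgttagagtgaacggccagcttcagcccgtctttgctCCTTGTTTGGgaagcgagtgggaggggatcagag
*Myl9*, chr2:156775214-156775463, plus strand: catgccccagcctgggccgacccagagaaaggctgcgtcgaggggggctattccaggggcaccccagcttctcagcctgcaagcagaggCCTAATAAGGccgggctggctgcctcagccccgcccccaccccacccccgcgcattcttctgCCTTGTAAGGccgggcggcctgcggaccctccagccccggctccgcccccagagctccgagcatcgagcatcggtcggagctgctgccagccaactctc
*Acta2* held 2 elements with 1 G or C in the middle, beginning 84 and 34 bases before the start. The start is that of RefSeq, which differs from the ends of the GENCODE spans given above. The windows of *Acta2* and *Myl9* overlap those spans, and the *Acta2* elements lie within its span. *Myl9* held a CArG box beginning 161 bases before the start and an element with 1 G or C at 99 bases. Of the 32851 promoters of the table, 1.47% held a CArG box, 7.24% held the form with 1 G or C, and 8.59% held either. A match describes the letters only, and no match in this window says nothing of the other 6 members.

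Counts were low for most members. Total counts were 32754717 to 44630808 per library, of which the 10 genes together took 6320 to 10259. *Tpm1* alone made up 69.1% to 84.3% of these, and the other 9 members together had 29.3 to 72.4 CPM per library. *Cnn1* had 1 to 41 reads per library, *Lmod1* 7 to 37 and *Des* 8 to 46. A gene was tested where it had more than 1 CPM in at least 3 of the 15 libraries, which left 16171 genes and 8 of the 10 members. *Cnn1* and *Lmod1* did not pass, and *Des* passed with exactly 3 such libraries, 1 ApoE4 and 2 WT of batch 2. Counting alone gave a relative SD of 1.11% to 1.38% for *Tpm1*, of 4.39% to 15.2% for *Acta2* and of 14.7% to 35.4% for *Des*.

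**Figure D1:**
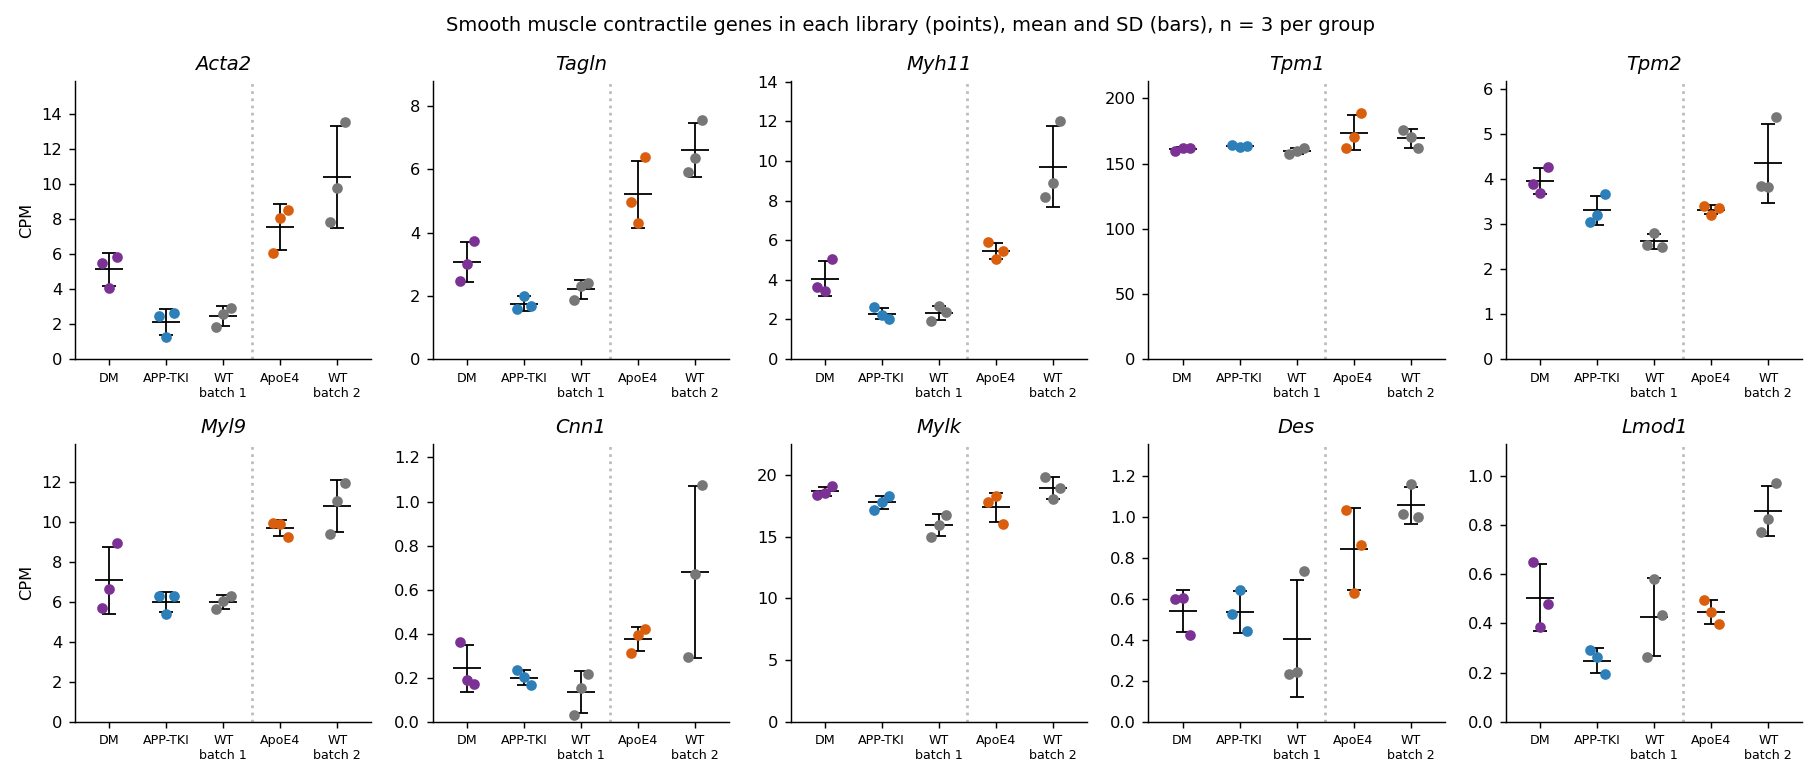
CPM of the 10 smooth muscle contractile genes in each library (points), with the mean and SD of each group (bars, n = 3 libraries each); the dotted line separates batch 1 from batch 2, and each panel has its own axis from 0. *Acta2*, *Tagln*, *Myh11*, *Tpm2* and *Mylk* had no overlap between DM and WT libraries of batch 1, and *Tpm1* stayed within 157.6 to 188.9 CPM in all 15 libraries.

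The tissue was checked against marker lists. Hippocampal neuron markers summed to 9201 to 10824 CPM in the 15 libraries, and a list of 17 skeletal and cardiac muscle genes to 25.0 to 39.4 CPM. In batch 2, ApoE4 replicate 1 and WT replicate 3 stood apart with 2062 and 1748 CPM of 12 choroid plexus markers, against 68.9 to 114.8 CPM in the other 4 libraries, so that results of batch 2 are also given without both. In bulk RNA, more cells of a type and more RNA per cell cannot be told apart.

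In DM against WT mice of batch 1, the question was how both alleles together relate to the level of these genes. All 8 tested members had a higher estimate in DM mice, where 54.9% of all genes did, with a median log2 fold change of 0.44, against 0.01 over all tested genes, although *Tpm1* was at 0.01 and turned negative under other scalings. With 1 library left out the median ran from 0.27 (without WT replicate 1) to 0.56. *Acta2* (log2 fold change 1.07), *Myh11* (0.80) and *Tpm2* (0.59) had the largest estimates. At an adjusted p under 0.1 in edgeR's quasi-likelihood test, 0 of the 8 members were called, among 2 called genes in all (0.0124% of those tested). At an unadjusted p under 0.05, 5 members were higher, where 3.69% of all genes were. By the likelihood ratio test with robust dispersions 3 members were called (0.841% of all genes), and by DESeq2 1 member (0.309%). Libraries of DM and WT mice did not overlap for 5 of the 10 members, each higher in DM mice, and 7.87% of all tested genes had this pattern. Here and below, overlap was judged on CPM, without the upper quartile scaling of the fits. The scaling factors ran from 0.984 to 1.015, so that narrow gaps can depend on the scaling.

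*Acta2*, the actin of the smooth muscle thin filament, had 210, 149 and 207 reads in DM libraries, against 62, 84 and 108 in WT libraries. As CPM these were 5.46, 4.08 and 5.85 in DM libraries and 1.81, 2.56 and 2.94 in WT libraries. The lowest DM library was above the highest WT library, and the group means were 5.13 ± 0.93 and 2.44 ± 0.57 CPM (SD, n = 3 each). The log2 fold change was 1.07 (SE, the standard error, 0.27; 2.09-fold), with an adjusted p of 0.516 in edgeR's quasi-likelihood test and rank 57 by p among the 16171 genes. With 1 library left out at a time it was 0.89 to 1.23. The adjusted p was 0.00336 in the likelihood ratio test and 0.0689 in DESeq2.

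*Myh11*, the heavy chain of the motor, had 140, 126 and 179 reads in DM libraries and 66, 87 and 88 in WT libraries. DM libraries had 3.64, 3.45 and 5.06 CPM, and WT libraries 1.93, 2.66 and 2.39 CPM, again with no overlap. The log2 fold change was 0.80 (SE 0.20, adjusted p = 0.516 in edgeR's quasi-likelihood test, adjusted p = 0.0418 in its likelihood ratio test). It was 0.60 without DM replicate 3, the highest library. *Myl9*, which encodes the light chain that the kinase phosphorylates, had 5.67, 6.62 and 8.93 CPM in DM libraries and 5.65, 6.04 and 6.31 CPM in WT libraries. Its groups overlapped, and DM replicate 3 carried the difference: the log2 fold change of 0.24 (SE 0.16) became 0.03 without it. *Mylk*, the kinase itself, had 18.3, 18.6 and 19.1 CPM in DM libraries, against 14.98, 15.97 and 16.77 CPM in WT libraries. These groups did not overlap at a log2 fold change of 0.23 (SE 0.08, adjusted p = 0.828 in edgeR's quasi-likelihood test).

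The tropomyosins, which lie along the actin filament and gate its access to myosin, differed from each other. *Tpm2* had 150, 135 and 151 reads in DM libraries and 87, 92 and 92 in WT libraries, which is 3.90, 3.69 and 4.27 CPM against 2.545, 2.809 and 2.501 CPM. All DM libraries were higher, with a log2 fold change of 0.59 (SE 0.15, adjusted p = 0.516 in edgeR's quasi-likelihood test, adjusted p = 0.0758 in its likelihood ratio test). *Tpm1* had 159.9, 162.0 and 162.0 CPM in DM libraries and 157.6, 159.6 and 162.2 CPM in WT libraries. The row of *Tpm1* sums 21 annotated transcripts, muscle and non-muscle, as that of *Mylk* sums 8. Its log2 fold change was 0.01 (SE 0.05), and it was below 0 with TMM or median-of-ratios scaling, in DESeq2, without the filter and without WT replicate 1.

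Of the other actin-binding proteins, *Tagln* (transgelin, an early marker of the smooth muscle lineage) had 95, 110 and 132 reads in DM libraries, against 64, 76 and 89 in WT libraries. The groups did not overlap, although the closest libraries were nearly level, at CPM of 2.47, 3.01 and 3.73 in DM mice and 1.87, 2.32 and 2.42 in WT mice, and the log2 fold change was 0.47 (SE 0.21; 0.31 without DM replicate 3). *Cnn1* (calponin, which restrains the myosin ATPase) had 14, 7 and 6 reads in DM libraries and 1, 5 and 8 in WT libraries. *Lmod1* (leiomodin, which nucleates actin filaments) had 25, 14 and 17 reads in DM libraries and 9, 19 and 16 in WT libraries. Both overlapped between the groups, with exact permutation p = 0.4 and 0.5 for the CPM (two-sided, n = 3 each), in a design that can go no lower than 0.1. *Des*, the intermediate filament gene, had 23, 22 and 15 reads in DM libraries and 8, 8 and 27 in WT libraries, and its log2 fold change of 0.40 was smaller than its SE of 0.45 and ran from 0.11 to 1.18 with 1 library left out.

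In DM against APP-TKI mice, which differ by the *APOE4* allele on the same mutant *App* background, *Acta2* stood further apart. It had 85, 43 and 96 reads or 2.47, 1.25 and 2.64 CPM in APP-TKI libraries, all under the 4.08 to 5.85 CPM of the DM libraries. The log2 fold change was 1.27 (SE 0.27, adjusted p = 0.602 in edgeR's quasi-likelihood test, rank 14 by p), and 1.00 without APP-TKI replicate 2, its lowest library. DESeq2 gave an adjusted p of 0.0155. *Tagln* (DM 2.47 to 3.73 CPM, APP-TKI 1.57, 2.01 and 1.68 CPM) had a log2 fold change of 0.81 (SE 0.21; 0.64 without DM replicate 3). *Myh11* (DM 3.45 to 5.06 CPM, APP-TKI 2.62, 2.24 and 2.04 CPM) had a log2 fold change of 0.82 (SE 0.20; 0.62 without DM replicate 3). Both ranked high by p without passing the adjustment, at rank 36 and rank 27.

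The remaining members separated less in this comparison. *Tpm2* had 3.06, 3.20 and 3.66 CPM in APP-TKI libraries, just under the 3.69 to 4.27 CPM of DM libraries, and a log2 fold change of 0.26 (SE 0.15). *Lmod1* had 25, 14 and 17 reads in DM libraries and 10, 9 and 7 in APP-TKI libraries, without overlap, and its CPM gave the smallest exact permutation p that 3 against 3 libraries allow (p = 0.1, two-sided). In CPM, *Mylk* was higher in all DM libraries at 0.07 and *Tpm1* lower in all of them at −0.02 on the log2 scale. Both changes lay within their SEs of 0.08 and 0.05. Both gaps were narrow and can close under scaling. For *Mylk* the lowest DM library had 18.35 and the highest APP-TKI library 18.28 CPM. For *Tpm1* the highest DM library had 161.98 and the lowest APP-TKI library 162.76 CPM. In all, 7 of 8 tested members had a higher estimate, where 50.4% of all genes did (median 0.25, against 0.00122 over all genes). No overlap with DM libraries higher was seen for 6 of the 10 members, *Lmod1* included, and for 5 of the 8 tested. Of all tested genes 5.18% had that pattern (2.79% with DM libraries lower, as for *Tpm1*). *Des* was at 0.02 (SE 0.43), with its sign set by single libraries. By edgeR's quasi-likelihood test 0 members were called (0% of all genes), with 3 at an unadjusted p under 0.05 (2.83% of all genes were higher at that p), 3 called by the likelihood ratio test (0.328%) and 1 by DESeq2 (0.114%). The DM libraries are those already set against WT mice, so these 2 comparisons are not independent.

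In APP-TKI against WT mice, which differ by the *App* mutations alone, 4 of 8 tested members had a higher and 4 a lower estimate (55.5% of all genes were higher), and the median log2 fold change was 0.02, against 0.01 over all genes. *Acta2* (2.12 ± 0.76 CPM in APP-TKI and 2.44 ± 0.57 CPM in WT mice) and *Myh11* (2.30 ± 0.29 and 2.33 ± 0.37 CPM, SD, n = 3 each) overlapped between the groups. Their log2 fold changes were −0.20 (SE 0.28; 0.07 without APP-TKI replicate 2) and −0.02 (SE 0.21). *Tagln* was at −0.33 (SE 0.21) and *Myl9* at −0.00289 (SE 0.17). In CPM, APP-TKI libraries were above all WT libraries for *Tpm2* (0.34, SE 0.15), *Mylk* (0.16, SE 0.08) and *Tpm1* (0.03, SE 0.05), 3 of 10 members, where 4.65% of all genes showed this. The gap of *Tpm1* was narrow (lowest APP-TKI library 162.76, highest WT library 162.19 CPM) and can close under scaling. 0 members were called by edgeR's quasi-likelihood test (0.00618% of all genes), its likelihood ratio test (0.309%) or DESeq2 (0.155%), with *Tpm2* the 1 member at an unadjusted p under 0.05 (2.19% of all genes were higher at that p).

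In ApoE4 against WT mice of batch 2, which differ by 1 *APOE4* allele on wild-type *App*, the estimates had the other direction. Of 8 tested members 7 had a lower and 1 a higher estimate in ApoE4 mice, where 45.9% of all genes were higher, with a median log2 fold change of −0.33, against −0.01 over all genes. *Des*, 1 of the 7, passed the filter only through 1 ApoE4 and 2 WT libraries of this batch. Its estimate is therefore given as a description, and the count and the median include it. *Myh11* had 263, 192 and 233 reads in ApoE4 libraries, against 308, 345 and 459 in WT libraries. Its CPM were 5.89, 5.04 and 5.44 in ApoE4 libraries and 8.21, 8.88 and 12.03 in WT libraries, with no overlap. The log2 fold change was −0.83 (SE 0.16, adjusted p = 0.669 in edgeR's quasi-likelihood test, rank 20 by p), and it was −0.64 without WT replicate 3, the highest library. *Myh11* was called by the likelihood ratio test (adjusted p = 0.0035) and by DESeq2 (adjusted p = 0.00573), as the 1 member in each, where 0.773% and 0.297% of all genes were called.

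*Tpm2* had 3.41, 3.20 and 3.36 CPM in ApoE4 libraries, all under the 3.84, 3.84 and 5.37 CPM of WT libraries, and a log2 fold change of −0.39 (SE 0.16) that became −0.21 without WT replicate 3. *Lmod1* had 22, 17 and 17 reads in ApoE4 libraries and 29, 32 and 37 in WT libraries, also with no overlap (exact permutation p = 0.1, two-sided, the smallest possible). No overlap with ApoE4 libraries lower was thus seen for 3 of 10 members, for 2 of the 8 tested members, and for 6.6% of all tested genes. *Acta2* had 6.07, 8.06 and 8.53 CPM in ApoE4 libraries and 7.86, 9.78 and 13.6 CPM in WT libraries. These groups overlapped, at a log2 fold change of −0.46 (SE 0.21) that was −0.22 without WT replicate 3. *Tagln* had 4.95, 4.31 and 6.38 CPM in ApoE4 libraries against 5.92, 6.36 and 7.55 CPM in WT libraries, and *Myl9* 9.97, 9.90 and 9.25 CPM against 9.38, 11.1 and 11.9 CPM. Both overlapped, *Tagln* at −0.34 (SE 0.17; −0.22 without ApoE4 replicate 2 and −0.51 without ApoE4 replicate 3) and *Myl9* at −0.15 (SE 0.11; −0.07 without WT replicate 3 and −0.24 without WT replicate 1). *Mylk* was at −0.12 (SE 0.08; −0.07 without ApoE4 replicate 3), *Des* at −0.32 (SE 0.23; −0.15 without ApoE4 replicate 2 and −0.49 without ApoE4 replicate 1) and *Tpm1* at 0.04 (SE 0.07). *Cnn1* had 14, 15 and 18 reads in ApoE4 libraries and 11, 26 and 41 in WT libraries (exact permutation p = 0.4, two-sided, n = 3 each).

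By edgeR's quasi-likelihood test 0 members were called in ApoE4 against WT mice (0% of all genes), and 2 were lower at an unadjusted p under 0.05, where 2.76% of all genes were. Without the 2 libraries rich in choroid plexus RNA, the median over the 8 members was −0.17, *Myh11* was at −0.71 and *Acta2* at −0.09. The direction therefore stayed for *Myh11* in every fit run, while the size of the *Acta2* difference rested on WT replicate 3 and ApoE4 replicate 1.

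**Figure D2:**
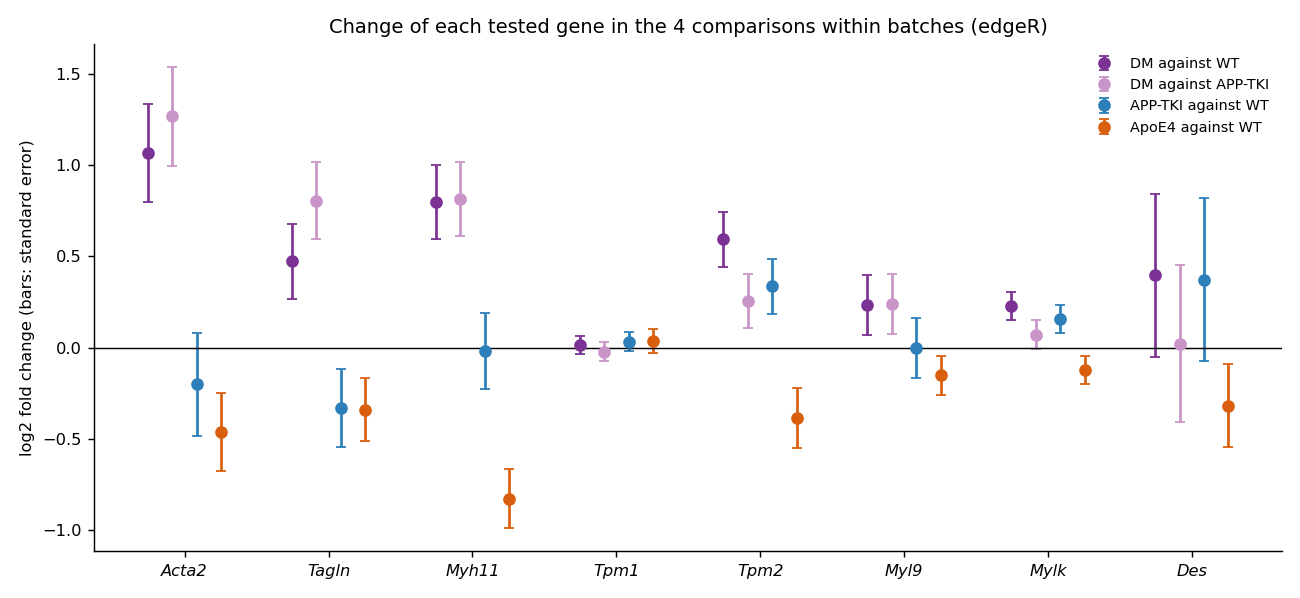
Log2 fold change (y axis) of each tested member in the 4 comparisons within batches, with SEs as bars, from edgeR's quasi-likelihood fits (3 libraries a group). *Acta2*, *Tagln*, *Myh11* and *Tpm2* lie above 0 in DM against WT and in DM against APP-TKI mice and below 0 in ApoE4 against WT mice, and 0 of these values passed an adjusted p of 0.1.

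The 2 directions were set against each other in a fit of all 15 libraries, where a shift common to a batch cancels. The effect with mutant *App* comes only from batch 1 and that without it only from batch 2. A difference between *App* backgrounds and one between batches therefore cannot be told apart, here or in the next comparison. The difference between the effect of *APOE4* with mutant *App* (DM minus APP-TKI) and without it (ApoE4 minus WT) was 1.64 on the log2 scale for *Myh11* (SE 0.26). This gave the smallest p of the 16171 genes (adjusted p = 0.263 in edgeR's quasi-likelihood test). *Acta2* differed by 1.73 (SE 0.37, adjusted p = 0.51, rank 9), *Tagln* by 1.15 (SE 0.27, rank 21) and *Tpm2* by 0.64 (SE 0.21, rank 203), while *Tpm1* was at −0.06 (SE 0.08). None of the 8 members passed (0% of all genes), 4 had an unadjusted p under 0.05 with a positive difference, where 4.06% of all genes did, and the likelihood ratio test and DESeq2 each called *Acta2*, *Myh11* and *Tagln* (3 members, 0.748% and 0.161% of all genes). Without the 2 choroid-rich libraries the *Myh11* difference was 1.52 and that of *Acta2* 1.36.

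The same fit gave DM minus WT against ApoE4 minus WT, which shares its DM, ApoE4 and batch 2 WT libraries with the preceding comparison. *Myh11* again had the smallest p of all genes, with a difference of 1.62 (SE 0.26, adjusted p = 0.298 in edgeR's quasi-likelihood test). *Acta2* was at 1.53 (SE 0.37), *Tpm2* at 0.98 (SE 0.21, rank 13), *Tagln* at 0.81 (SE 0.27) and *Mylk* at 0.35 (SE 0.10). By edgeR's quasi-likelihood test 0 members were called (0% of all genes) and 5 were positive at an unadjusted p under 0.05 (4.16% of all genes). The likelihood ratio test and DESeq2 each called *Acta2*, *Myh11* and *Tpm2* (3 members, 0.445% and 0.192% of all genes).

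The WT groups of both batches, which share a genotype, were compared after the counts had been seen. For most members this difference was larger than those between genotypes within a batch. *Acta2* had 7.86, 9.78 and 13.6 CPM in WT libraries of batch 2, against 1.81, 2.56 and 2.94 CPM in WT libraries of batch 1. In the fit of all 15 libraries, of the 7 members with more than 1 CPM in every library, 6 rose in batch 2, where 7.61% of all genes did (edgeR's quasi-likelihood test, adjusted p under 0.1). *Acta2* rose by 2.07 (SE 0.27, adjusted p = 0.000171), *Myh11* by 2.04 (SE 0.19, adjusted p = 1.41e-05), *Tagln* by 1.56 (SE 0.19), *Myl9* by 0.82 (SE 0.15), *Tpm2* by 0.71 (SE 0.15) and *Mylk* by 0.23 (SE 0.07), all on the log2 scale in edgeR's fit. The exception was *Tpm1*, at 0.06 (SE 0.06). *Des*, at 1.33 (SE 0.37), entered the test only through libraries of batch 2, so its estimate is given as a description and it is left out of the count. The call of *Mylk* depended on single libraries (in edgeR's quasi-likelihood test, adjusted p = 0.156 without both choroid-rich libraries, and up to 0.21 with 1 library left out), and the other 5 members passed with each library left out.

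Libraries of the WT groups did not overlap for 9 of the 10 members, each higher in batch 2. These include *Cnn1* and *Lmod1*, which were not tested. Of the 8 tested members 7 showed this, with *Des*, which entered the test only through batch 2, among them. Of all tested genes 15.9% did. For *Acta2*, *Tagln* and *Myl9* every library of batch 2, ApoE4 included, was above every library of batch 1, DM included. Levels of ApoE4 and DM mice therefore cannot be compared directly, and batch and group cannot be told apart between them. Markers of other cells also rose in batch 2, namely endothelial (19 of 20 tested genes), ependymal (10 of 11), choroid plexus (8 of 10), oligodendrocyte (8 of 8), fibroblast and meningeal (13 of 19), pericyte (7 of 15) and red blood cell markers (3 of 4), and their part in the difference was not tested. Such genes could pass the filter through batch 2 alone, and choroid plexus markers summed to 68.9, 114.8 and 1748 CPM in its WT libraries. Of hippocampal neuron (12 tested), astrocyte (8) and microglia and macrophage markers (8), 0 were called higher. Called lower were 0, 0 and 2.

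**Figure D3:**
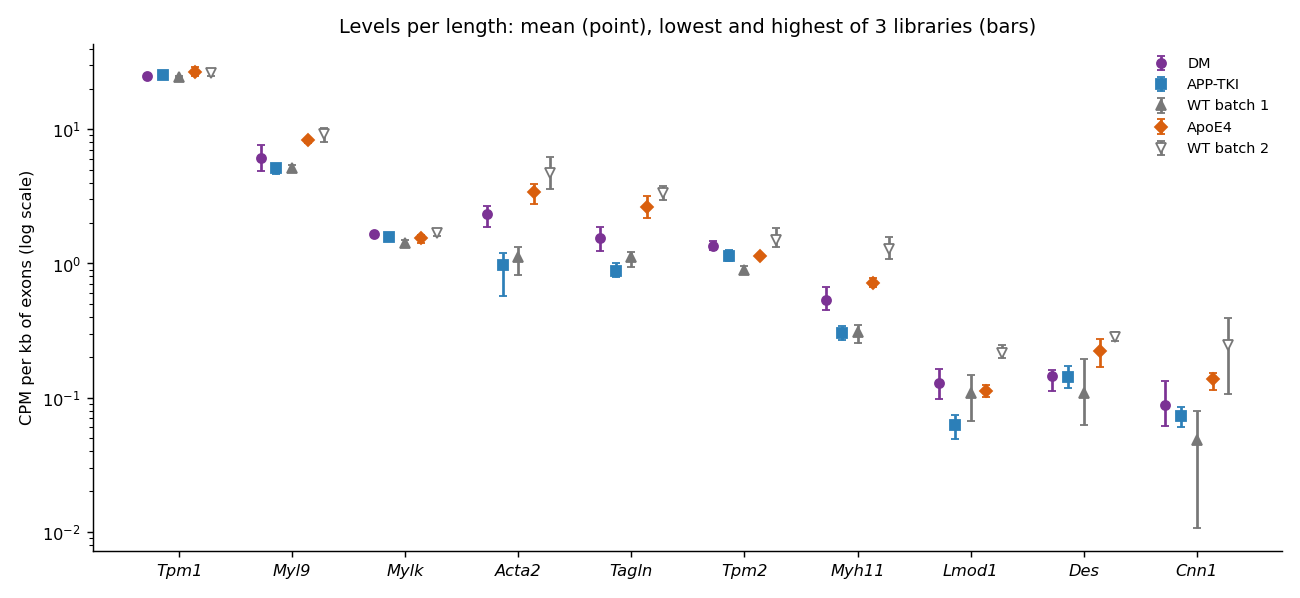
Mean CPM per kilobase of annotated exons (log scale) of each member in the 5 groups, with the lowest and highest of 3 libraries as bars, members ordered by level in WT mice of batch 1. *Tpm1* lay between 24.6 and 26.8 CPM per kilobase in every group, and *Des*, *Lmod1* and *Cnn1* were at or under 0.281 CPM per kilobase.

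Levels of different genes were compared per length, as mean CPM per kilobase of annotated exons. *Tpm1* led in all groups: DM mice had 24.9, APP-TKI mice 25.2, WT mice of batch 1 24.6, ApoE4 mice 26.8 and WT mice of batch 2 26.1. *Myl9* came next in all groups, at 6.09 (DM), 5.16 (APP-TKI), 5.16 (WT, batch 1), 8.35 (ApoE4) and 9.29 (WT, batch 2). No library of *Myl9* overlapped those of its neighbours in this order. The place of *Acta2* differed: in DM mice it followed *Myl9* (2.34, above *Mylk* at 1.66 with no overlap), in APP-TKI mice it lay between *Tpm2* and *Tagln* (0.967), and in WT mice of batch 1 between *Mylk* and *Tagln* (1.11), overlapping both neighbours in the last 2 groups. In batch 2 *Acta2* followed *Myl9* in ApoE4 (3.44) and WT mice (4.74), overlapping *Tagln* (2.62 and 3.32) below it. *Myh11*, a subunit of the same motor as *Myl9*, stood at place 7 in each group, between 0.303 in APP-TKI and 1.28 in WT mice of batch 2. *Des*, *Lmod1* and *Cnn1* closed the order in all groups, and most of their neighbouring levels overlapped.

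Across the 15 libraries, centred within each batch, most tested members were positively correlated with each other. *Myh11* correlated with *Acta2* (Pearson's r = 0.79), *Tagln* (0.81) and *Tpm2* (0.81), *Mylk* with *Tpm2* (0.73), and *Tpm1* with none of the other 7 above 0.14. These values describe 15 libraries of 5 groups that share batches and depth. The genes outside the list most like its mean log2 CPM were *BC031181* (r = 0.88), *Uaca* (0.87), *Slc22a8* (0.87), *Arhgap29* (0.86) and *1500009C09Rik* (0.86). Of the members *Myh11* was closest to that mean (0.93), which includes *Myh11* itself, so that its value cannot be set against those of the other genes. Differences between groups within a batch enter all these values.

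In DM against WT and in ApoE4 against WT mice, medians of other smooth muscle genes and of their non-muscle counterparts lay nearer to 0 than that of the members. Of 19 tested regulators and further smooth muscle genes (of 24 listed), 11 had a higher estimate in DM against WT mice (median 0.12), where 54.9% of all genes did. At an unadjusted p under 0.05, 2 were higher, where 3.69% of all genes were. These were *Pcp4l1* (0.28, SE 0.09) and *Kcnmb1* (1.40, SE 0.54), a subunit of the large-conductance potassium channel of vascular muscle. In ApoE4 against WT mice 11 of the 19 were higher (median 0.01). The 24 listed genes summed to 896 to 1181 CPM per library, against 29.3 to 72.4 CPM for the 9 members other than *Tpm1*. Which cells this RNA came from was not tested, so the median need not describe vessel muscle. The contraction signalling genes, such as *Rhoa* (0.08, SE 0.07 in DM against WT mice), which restrains myosin phosphatase through its kinase, had medians of 0.02 in DM against WT and −0.02 in ApoE4 against WT mice over 22 tested genes. Non-muscle and cytoplasmic counterparts, such as *Myl6* (0.17, SE 0.06) and *Vim* (0.26, SE 0.08), had 12 of 18 higher in DM against WT mice, with a median of 0.02. By edgeR's quasi-likelihood test 0 genes of these 3 lists were called in the 4 comparisons within batches.

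**Figure D4:**
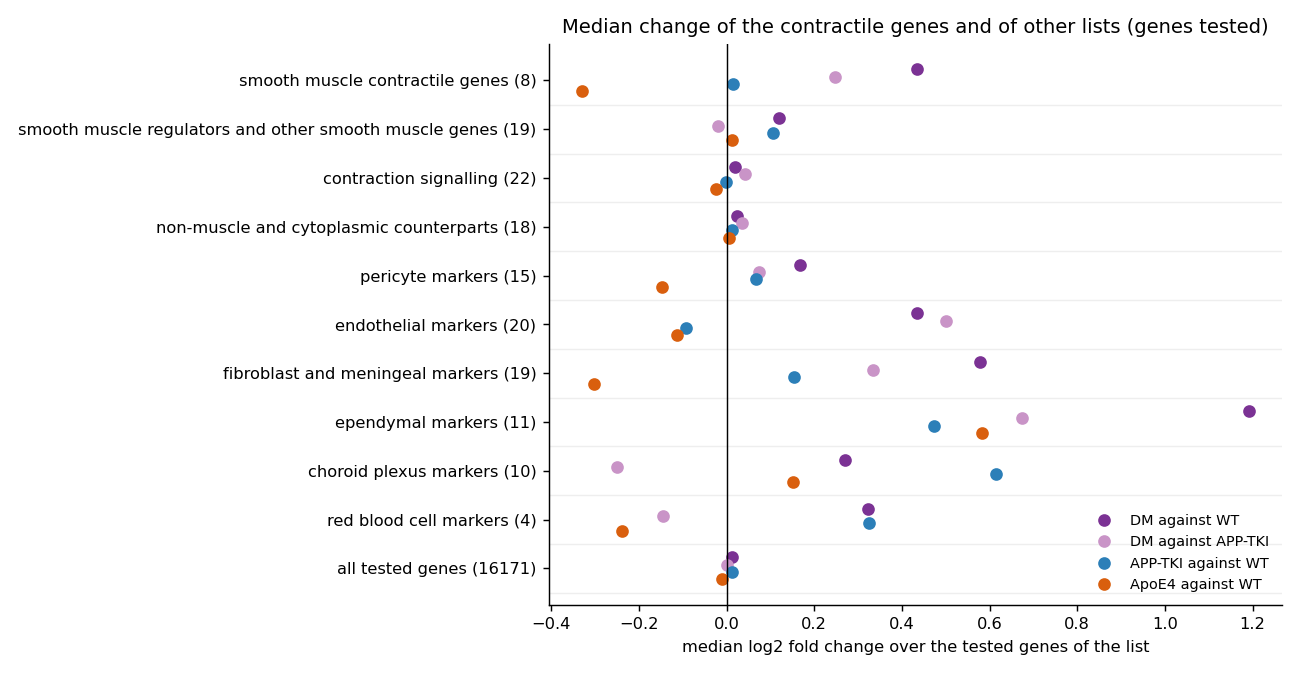
Median log2 fold change (x axis) over the tested genes of each list (rows, number tested in brackets) in the 4 comparisons within batches, with all tested genes in the bottom row. The contractile genes had medians of 0.44 in DM against WT and −0.33 in ApoE4 against WT mice. The endothelial, fibroblast, pericyte and red blood cell lists had the same signs. So did contraction signalling (0.02 and −0.02) and all tested genes (0.01 and −0.01).

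Levels of markers of other cells of the vessel wall, the meninges and the ventricle lining are given beside those of the contractile genes. Of all tested genes, 54.9% had a higher estimate in DM against WT and 50.4% in DM against APP-TKI mice. Endothelial markers had higher estimates in DM against WT mice for 20 of 20 tested genes (median 0.43), with summed levels of 164.5 to 207.6 CPM in DM libraries and 130.2 to 144.3 CPM in WT libraries. Against APP-TKI mice (123.1 to 139.5 CPM) they were higher for 20 of 20 as well, with a median of 0.50. Pericyte markers were higher for 13 of 15 genes in DM against WT mice (median 0.17, 205.7 to 224.8 CPM in DM and 179.8 to 207.2 CPM in WT libraries). Fibroblast and meningeal markers were higher for 17 of 19 (median 0.58, 244.0 to 268.4 CPM in DM and 194.0 to 229.8 CPM in WT libraries). Ependymal markers were higher for 11 of 11 (median 1.19, 35.7 to 49.5 CPM in DM and 18.1 to 23.9 CPM in WT libraries). None of these genes was at 0 in all libraries of a group, and their part in the result was not tested.

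In ApoE4 against WT mice, where 45.9% of all genes had a higher estimate, the endothelial list had 17 of 20 genes lower (median −0.11, 235.5 to 297.3 CPM in ApoE4 and 267.8 to 323.8 CPM in WT libraries). Fibroblast and meningeal markers had 18 of 19 lower (median −0.30) and pericyte markers 13 of 15 lower (median −0.15). Ependymal markers had 11 of 11 higher (median 0.58, 71.2 to 128.0 CPM in ApoE4 and 38.2 to 91.9 CPM in WT libraries). By edgeR's quasi-likelihood test 0 genes of these lists were called in DM against WT or ApoE4 against WT mice. In DM against WT mice 11 of 20 endothelial, 11 of 19 fibroblast, 10 of 11 ependymal and 4 of 15 pericyte genes were higher at an unadjusted p under 0.05. Of all tested genes 3.69% were. The share of counts from noncoding genes, which differs with RNA quality and nuclear RNA, was 2.31% to 3.09% in batch 1 and 1.77% to 1.96% in batch 2, and in batch 1 it was 2.35% to 3.07% in DM and 2.31% to 3.09% in WT libraries.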

How the data were processed

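RNA came from frozen whole hippocampi, and strand-specific libraries of its polyadenylated fraction were sequenced from both ends. The deposited values are raw counts of reads per gene, which the authors made with Trimmomatic 0.39, STAR 2.7.1a (mouse genome of GENCODE release M24 with the human *APOE* sequence added) and HTSeq 0.11.2, with human and mouse *APOE* combined. Multimapping and strand settings are not given in the sources used here. IDs were matched to GENCODE M21 of the same genome build (55144 of 55471), and promoter sequences came from RefSeq (GRCm38.p6).

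From these counts, genes with CPM above 1 in at least 3 of the 15 libraries were kept (16171), scaled by the upper quartile and tested with edgeR 4.0.16 (quasi-likelihood, R 4.3.3, limma 3.58.1), each batch being fitted alone and all 15 libraries together for comparisons across batches. P-values were adjusted by Benjamini-Hochberg over all tested genes and called under 0.1. Standard errors are those of the log2 fold change. CPM are of the whole library, given as mean ± SD, and overlap of libraries was judged on them without scaling. Members under the filter were compared by exact permutation tests of their CPM in Python 3.11.15 (scipy 1.17.1). The steps were also run on simulated data with known changes but without a shift between batches, and the outcome is not given here. Alternatives were the edgeR likelihood ratio test with robust dispersions (the authors' kind of test), DESeq2 1.42.0, scaling by TMM or median-of-ratios, filterByExpr or no filter, robust dispersions, other sets of libraries, a replicate block, a threshold of 0.05 and each library left out.

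The members, the lists and the tests were chosen with earlier results of these data known. All 10 members are named. Of other lists, up to 3 genes with the smallest p in DM against WT mice could be named, and of genes like the members the 5 with the highest Pearson correlation. For the replicate block, samples of the same number deviated together in DM and WT mice (correlations of 0.45, 0.19 and 0.30 for replicates 1 to 3, and each of 6 samples was closest to its own number), so that these numbers were taken to pair them. They did not in the other comparisons, but the block was fitted there as well. Outside DM against WT mice it thus models a pairing that the deviations did not show. The main tests used no block, in DM against WT mice included. Depth limits *Cnn1*, *Lmod1* and *Des* most.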

Additional observations from a re-analysis of the deposited data

Results flagged for a closer look

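*Lmod1* had DM libraries all above APP-TKI libraries and ApoE4 libraries all below WT libraries of batch 2, so that the libraries separated in opposite directions. It was picked for this pattern among the members under the filter, and *Myh11* and *Tpm2* had the same pattern. How many of all genes show it was not counted, and the values below describe the same counts. The difference of mean CPM was 0.256 in DM against APP-TKI mice (0.505 and 0.249 CPM) and −0.41 in ApoE4 against WT mice (0.445 and 0.856 CPM), from 7 to 37 reads per library. *Lmod1* was under the filter on low counts, and without a filter the difference between both effects was 1.93 on the log2 scale (SE 0.60, adjusted p = 0.104 in edgeR's quasi-likelihood test).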

How the results depend on the processing

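With the replicate block, 0 members were called in every comparison between genotypes, and the median in DM against WT mice was 0.45. There, *Acta2* had an adjusted p of 0.196 with the block and 0.516 without it (edgeR's quasi-likelihood test). In the other comparisons the replicate numbers did not pair the libraries, so that the block is a change of setting only. In each comparison between genotypes 0 members were called by edgeR's quasi-likelihood test with the filter. In APP-TKI against WT mice this number stayed at 0 in every setting. In the other comparisons it changed with the test, and in all of these but ApoE4 against WT mice also without the filter. In DM against WT mice it was 3 by the likelihood ratio test, 1 by DESeq2 and 2 without a filter. In DM against APP-TKI mice it was 3, 1 and 3, in ApoE4 against WT mice 1 by both other tests, and in each of the 2 differences between effects 3, 3 and 3. The cause was not tested, apart from the filter, whose removal adds genes to the fit. The median in APP-TKI against WT mice was −0.00614 without a filter and ran between −0.0190 and 0.0656 with 1 library left out, so that its sign depended on single libraries. That in ApoE4 against WT mice ran between −0.37 and −0.19 with 1 library left out and was −0.17 without both choroid-rich libraries, a setting chosen after seeing the data. Of the values of these counts and medians over all settings, 180 stayed, 17 moved and 3 turned in sign. Single members' calls were tallied together with the counts and medians of the WT comparison between batches. Of these 1158 stayed, 33 were gained and 8 were lost, where a member not called in either setting counted as stayed even if its sign changed. Over all genes, DM against WT mice gave 1 higher and 1 lower call by edgeR's quasi-likelihood test. There were 122 and 14 by the likelihood ratio test, 37 and 13 by DESeq2, 157 and 22 without a filter, 25 and 5 with only both groups in the fit, 7 and 4 with the replicate block, and 24 and 5 without APP-TKI replicate 2. Without a filter, calls over all genes were 79 higher and 30 lower of 34813 in DM against APP-TKI mice, 183 and 210 of 36318 in the difference between both *APOE4* effects, and 196 and 155 of 36318 in that between DM and ApoE4 against WT mice.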
